A study of Saccharomyces cerevisiae and Saccharomyces cerevisiae S288C with 30 samples.

Results

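The introns described here lie in the genes of small-subunit ribosomal proteins of the budding yeast Saccharomyces cerevisiae. They are the annotated introns of the deposited splicing table that fall in a gene named RPS plus a number, other than RPS9A, RPS9B, RPS13, RPS14A, RPS14B and RPS22B. The rule gave 30 introns in 30 genes, of 36 annotated RPS introns, 279 annotated introns and 405 events in the table. The 30 genes form 15 complete pairs of paralogs, each with an A and a B copy and 1 annotated intron per copy, among them RPS0, RPS4, RPS6, RPS7, RPS10, RPS16, RPS18, RPS19, RPS21, RPS23, RPS24, RPS27 and RPS30.

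Budding yeast has few introns, and a large share of its spliced messages in growing cells comes from ribosomal protein genes. The spliceosome removes an intron as a lariat, a looped RNA closed at the branch point, and the enzyme Dbr1 then opens the loop so that the RNA can be degraded. Messages that keep an intron often meet a premature stop codon, and Upf1, a helicase, is central to the nonsense-mediated decay that removes such messages. Most yeast ribosomal proteins are encoded by duplicated genes whose products are nearly identical.

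The study measured RNA by sequencing in 26 libraries, 2 biological replicates in each of 13 groups, and mapped branch points in separate experiments. The first 6 libraries were TruSeq libraries of dbr1_null, upf1_null and WT cells, all S288C, grown in YPD to log phase. The column names of the PSI values mark these 6 as polyA. The other 20 were Ribo-Zero libraries, marked riboZero. Of these, dbr1, +rap and -rap were S288c. In the SK1 strain 6 groups had spent 0, 3, 6, 7.5, 8.5 and 12 h in sporulation medium, and the sk1 group has no time in its labels. The labels do not spell out +rap or give the medium of the Ribo-Zero S288c and sk1 cultures, and they give the Ribo-Zero dbr1 and sk1 groups no control of their own. Both were set against -rap. The dbr1 genotype and the SK1 strain therefore cannot be told apart from anything else in which these cultures and -rap were unlike. How the null alleles were made is not given in the sources used here, and the RNA levels of DBR1 and UPF1 were not analysed here.

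The value for each intron was a PSI, a fraction between 0 and 1 given in steps of 0.01. The sources do not define it for introns. It was read here as the share of reads that carry the intron, a reading that the sources do not settle. In WT most of these introns lay near 0, and in the Ribo-Zero dbr1 libraries most lay near 1. The read depth behind each PSI is unknown, and a step of 0.01 at low PSI is a large relative change, since 0.03 and 0.04 differ by 0.34 in log2 odds. How reads that match both copies of a paralog pair were counted is not given either, so the level of 1 copy against the other is uncertain. Whether reads of excised lariat introns entered the PSI is also not given.

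Between 231 and 394 events had a value in a library, and only 5 of the 30 introns had all 26 values (RPS0B, RPS6A, RPS7B, RPS23B and RPS30A). RPS4A and RPS27B had the fewest, with 20 each. The gaps lay mostly in the late sporulation libraries: 16 of the 30 introns had both values at 7.5 h and 5 had both at 8.5 h.

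The 30 introns were long for yeast. They measured 256 to 551 nt with a median of 401 nt, close to the 408 nt of the 54 introns in large-subunit (RPL) genes. The 189 annotated introns outside RPL and RPS genes had a median of 99 nt. The shortest of the 30 was in RPS4A, on chromosome X from 702799 to 703054 (sacCer3, minus strand). The longest was in RPS19B, on chromosome XIV from 62373 to 62923 (minus strand).

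In WT cells most of these introns had a low PSI and a few a high one. The mean PSI in WT was lowest for RPS4B at 0.025, had a median of 0.06 over the 30 introns and was highest for RPS16A at 0.83. Of the 30, 23 were below 0.1, and 5 were at or above 0.4. RPS16A, whose protein sits in the head of the subunit with its tail near the P-site tRNA, had PSI values of 0.84 and 0.82 in the WT libraries. RPS0B, a body protein that is needed for maturation of the small-subunit rRNA, had 0.78 and 0.77 in WT, and its paralog RPS0A had 0.42 and 0.40. RPS21A, whose protein lies next to Rps0 in the subunit, had 0.63 and 0.59 in WT. RPS27B, a zinc-finger protein of the platform, had 0.55 and 0.42 in WT. The S288c -rap libraries of the Ribo-Zero set had the same 5 introns at or above 0.4, and a median of 0.08. Over the 30 introns the rank correlation between the WT and -rap means was 0.871, a description across introns that share their libraries.

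**Figure D1:**
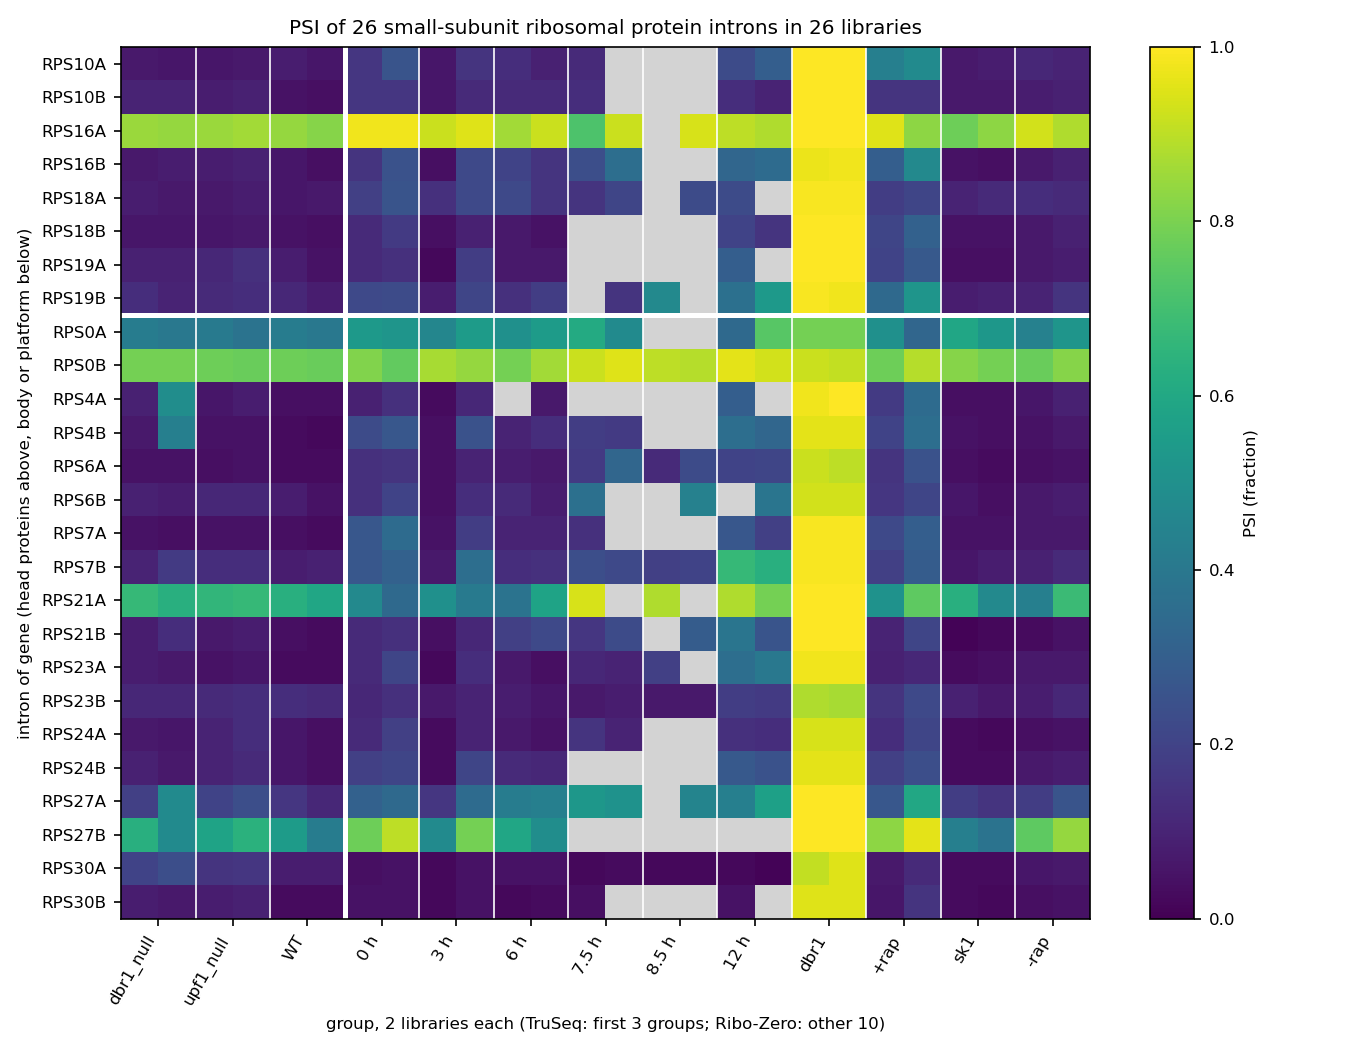
PSI of 26 of the introns (rows, head proteins above the white line) in each of the 26 libraries (columns, 2 per group), on a colour scale from 0 to 1, with grey for no value. The dbr1 columns of the Ribo-Zero set are bright for all 26 rows (group means of 0.79 to 1), while in WT, sk1 and -rap 5 rows (RPS16A, RPS0A, RPS0B, RPS21A and RPS27B) have means at or above 0.4 and the others lie lower.

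Introns differed in how far their PSI moved. Over the 20 Ribo-Zero libraries the narrowest ranges were 0.20 for RPS0B, 0.28 for RPS16A and 0.46 for RPS0A. The widest were 0.99 for RPS21B, 0.98 for RPS19A and 0.97 for RPS4A. The dbr1 libraries set the upper end of these wide ranges. Without the dbr1 libraries the widest ranges were 0.61 for RPS7B, 0.60 for RPS21A and 0.58 for RPS27B. Among the narrow ranges without them were 0.10 for RPS10B, a head protein, and 0.11 for RPS30A.

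Loss of Dbr1 or of Upf1 was compared with WT in the TruSeq libraries. The 3 introns that rose in dbr1_null cells were those of RPS30A, RPS30B and RPS23A, and none of the 30 fell, by limma on the log2 odds of PSI with Benjamini-Hochberg adjustment over all events (adjusted p under 0.05). Among all 377 events tested, 2.39% rose and 0.265% fell. RPL introns had a like share, with 5 of 54 up, while of the 166 tested annotated introns outside RPL and RPS genes none rose and 1 fell. RPS30A and RPS30B encode a small protein of the body near the mRNA entry channel, and RPS23A encodes a protein of the decoding centre.

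RPS30A (chromosome XII, 712726 to 713155, sacCer3, minus strand) had PSI values of 0.20 and 0.24 in dbr1_null and 0.08 and 0.08 in WT. The groups did not overlap, and the difference was 1.58 ± 0.13 in log2 odds (SE, limma adjusted p = 0.0262). RPS30B had 0.08 and 0.07 in dbr1_null against 0.03 and 0.03 in WT (1.15 ± 0.10 in log2 odds, limma adjusted p = 0.0262). RPS23A had the same 4 values as RPS30B (1.15 ± 0.12 in log2 odds, limma adjusted p = 0.0389), and its paralog RPS23B had 0.11 and 0.11 in dbr1_null against 0.13 and 0.12 in WT. The mean PSI was higher in dbr1_null than in WT for 27 of the 30. In 17 of the 30 both dbr1_null libraries lay above both WT libraries, as they did in 37 of 54 RPL introns and 132 of all 377 events. Both lay below in 1 of the 30 and in 15 of all events. The median difference was 0.0225 in PSI over the 30, against 0.02 over all events. The count of introns that rose was 0 without either WT library, 5 without dbr1_null replicate 1 and 1 without dbr1_null replicate 2. On untransformed PSI it was 0.

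The 2 dbr1_null libraries were furthest apart at 3 introns. RPS4A had 0.09 in replicate 1 and 0.49 in replicate 2, against 0.04 and 0.04 in WT. Its paralog RPS4B had 0.07 and 0.43 in dbr1_null, against 0.03 and 0.02 in WT. RPS27A had 0.19 and 0.48 in dbr1_null, against 0.16 and 0.11 in WT. None of the 3 passed the test. Over the 30 introns the median distance between the 2 dbr1_null libraries was 0.01 in PSI.

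In upf1_null cells 5 introns rose and none fell, among them those of RPS30A, RPS30B, RPS10B and RPS23A (limma, adjusted p under 0.05). Among all 382 events tested, 11.8% rose and 1.05% fell, so the share of the 30 was near the background. RPL introns had 14 of 54 up, and annotated introns outside RPL and RPS genes 17 of 170. The shift was small and mostly in 1 direction. RPS0B and RPS23B had equal means in upf1_null and WT (0.775 and 0.125). The means of RPS0A and RPS10A were lower in upf1_null. In 25 of the 30 both upf1_null libraries lay above both WT libraries, as they did in 49 of 54 RPL introns and 45.0% of all events. The median difference was 0.0325 in PSI, against 0.025 over all events.

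RPS30B had the smallest p in this comparison, with 0.08 and 0.09 in upf1_null against 0.03 and 0.03 in WT (1.33 ± 0.10 in log2 odds, limma adjusted p = 0.0116). RPS30A had 0.15 and 0.16 in upf1_null against 0.08 and 0.08 in WT (1.00 ± 0.13, limma adjusted p = 0.0380). RPS10B, a head protein near the mRNA entry site, had 0.08 and 0.09 in upf1_null against 0.05 and 0.04 in WT (0.85 ± 0.12, limma adjusted p = 0.0447). All of these lay between 0.03 and 0.16, the range where the step of the table matters most. RPS23A had 0.05 and 0.06 in upf1_null against 0.03 and 0.03 in WT (limma adjusted p = 0.0475). The count was 3 and 1 without upf1_null replicate 1 or 2, and 1 and 0 without WT replicate 1 or 2. It was 2 on untransformed PSI or with the 2 groups alone in the fit, and 3 with robust moderation. Both null groups were set against the same WT libraries.

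**Figure D2:**
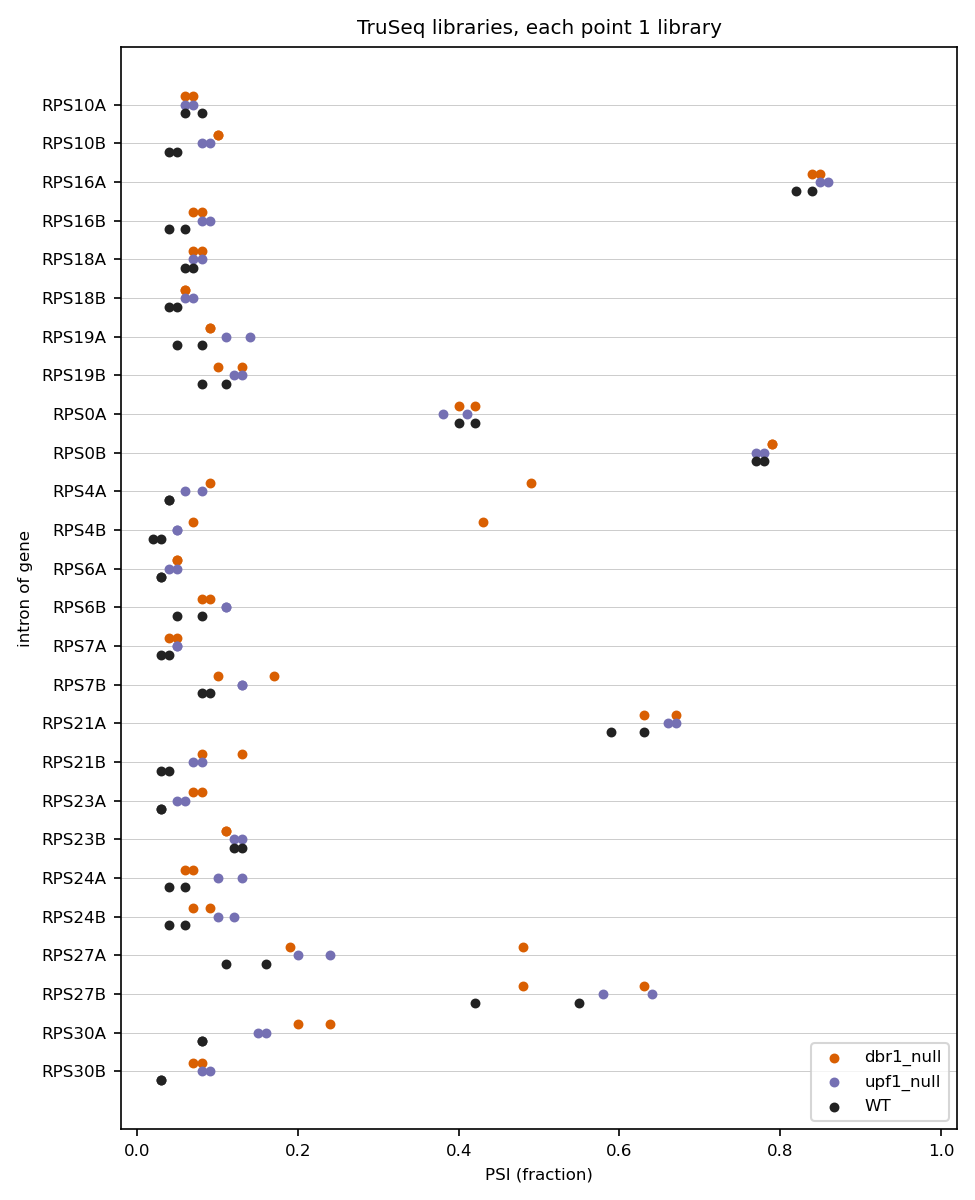
PSI (horizontal axis, fraction) of 26 of the introns in the 6 TruSeq libraries, with each point 1 library of dbr1_null (orange), upf1_null (purple) or WT (black). The points of most introns lie close together below 0.2, while dbr1_null replicate 2 lies apart at RPS4A (0.49), RPS4B (0.43) and RPS27A (0.48).

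In the Ribo-Zero libraries the dbr1 group looked very different. All 30 introns rose in dbr1 relative to -rap (limma, adjusted p under 0.05), in a comparison where 43.3% of all events rose and 0.940% fell. The median of the group means was 0.9825 in dbr1 and 0.08 in -rap. In 10 of the 30 introns both dbr1 libraries read 1, and in 27 the dbr1 mean was 0.9 or more. RPL introns were alike, with 51 of 54 up, while 32 of the 115 tested annotated introns outside RPL and RPS genes rose and 1 fell.

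RPS21B had 1 and 1 in dbr1 against 0.03 and 0.05 in -rap, a difference of 0.96 in PSI (limma adjusted p = 4.12e-09). RPS19A, whose protein sits in the head and is needed for maturation of the small-subunit rRNA, had 1 and 1 in dbr1 against 0.07 and 0.08 in -rap (limma adjusted p = 6.44e-07). RPS18B, a head protein at a bridge to the large subunit, had 1 and 1 in dbr1 against 0.07 and 0.09 in -rap (limma adjusted p = 4.12e-09). In these introns nearly the whole scale of PSI separated the groups. RPS7A had 0.99 and 0.99 in dbr1 against 0.07 and 0.07 in -rap. RPS10B had 1 and 1 in dbr1 against 0.08 and 0.09 in -rap. RPS4A had 0.98 and 1 in dbr1 against 0.06 and 0.09 in -rap, and RPS23A had 0.98 and 0.98 against 0.07 and 0.07. These 4 had limma adjusted p-values of 8.31e-10 to 3.47e-06.

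Among the lowest values in dbr1 were those of RPS0A, at 0.79 and 0.79 against 0.44 and 0.52 in -rap, and RPS23B, at 0.88 and 0.87 against 0.08 and 0.11. The TruSeq dbr1_null and the Ribo-Zero dbr1 values came from different library preparations, marked polyA and riboZero in their column names. They were not tested against each other, and the part of the RNA selection in their difference was not tested. Side by side, RPS21B had 0.08 and 0.13 in dbr1_null and 1 and 1 in dbr1.

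The +rap group was compared with -rap in the same strain. In +rap 14 of the 30 introns rose and none fell (limma, adjusted p under 0.05), in a comparison where 18.0% of all events rose and 3.27% fell. The median of the group means was 0.26 in +rap and 0.08 in -rap. Of the RPL introns 29 of 53 rose, and of the 105 introns outside RPL and RPS genes 3 rose and 2 fell. Among the 30, 6 of 10 introns of head proteins and 8 of 20 of body or platform proteins rose, and the difference between these lists was not tested.

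RPS10A (chromosome XV, 867150 to 867586, sacCer3, plus strand) had 0.43 and 0.48 in +rap against 0.11 and 0.10 in -rap (2.72 ± 0.44, limma adjusted p = 0.00632). Its paralog RPS10B, with 0.15 and 0.15 in +rap against 0.08 and 0.09 in -rap, did not pass the test.

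RPS19B had 0.34 and 0.52 in +rap against 0.10 and 0.15 in -rap (2.33 ± 0.54, limma adjusted p = 0.0198). RPS16B had 0.30 and 0.47 in +rap against 0.07 and 0.09 in -rap (2.70 ± 0.67, limma adjusted p = 0.0222). In both the 2 groups lay apart, but replicate 2 of +rap was well above replicate 1. RPS4B had 0.20 and 0.36 in +rap against 0.05 and 0.07 in -rap (limma adjusted p = 0.0273). RPS7A had 0.22 and 0.30 in +rap against 0.07 and 0.07 in -rap (limma adjusted p = 0.0222). The introns with high starting values did not pass the test: RPS0B had 0.78 and 0.89 in +rap against 0.77 and 0.82 in -rap, and RPS16A had 0.95 and 0.83 against 0.93 and 0.88.

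Replicate 2 of +rap was higher than replicate 1 in 27 of the 30 introns, with a median gap of 0.085, and in 71 of 126 introns outside RPL and RPS genes. Its part in the result was not tested further than by leaving it out, which gave a count of 0 of 30, while leaving out +rap replicate 1 gave 16. Without either -rap library the count was 1. With the 2 groups alone in the fit the count was 1.

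**Figure D3:**
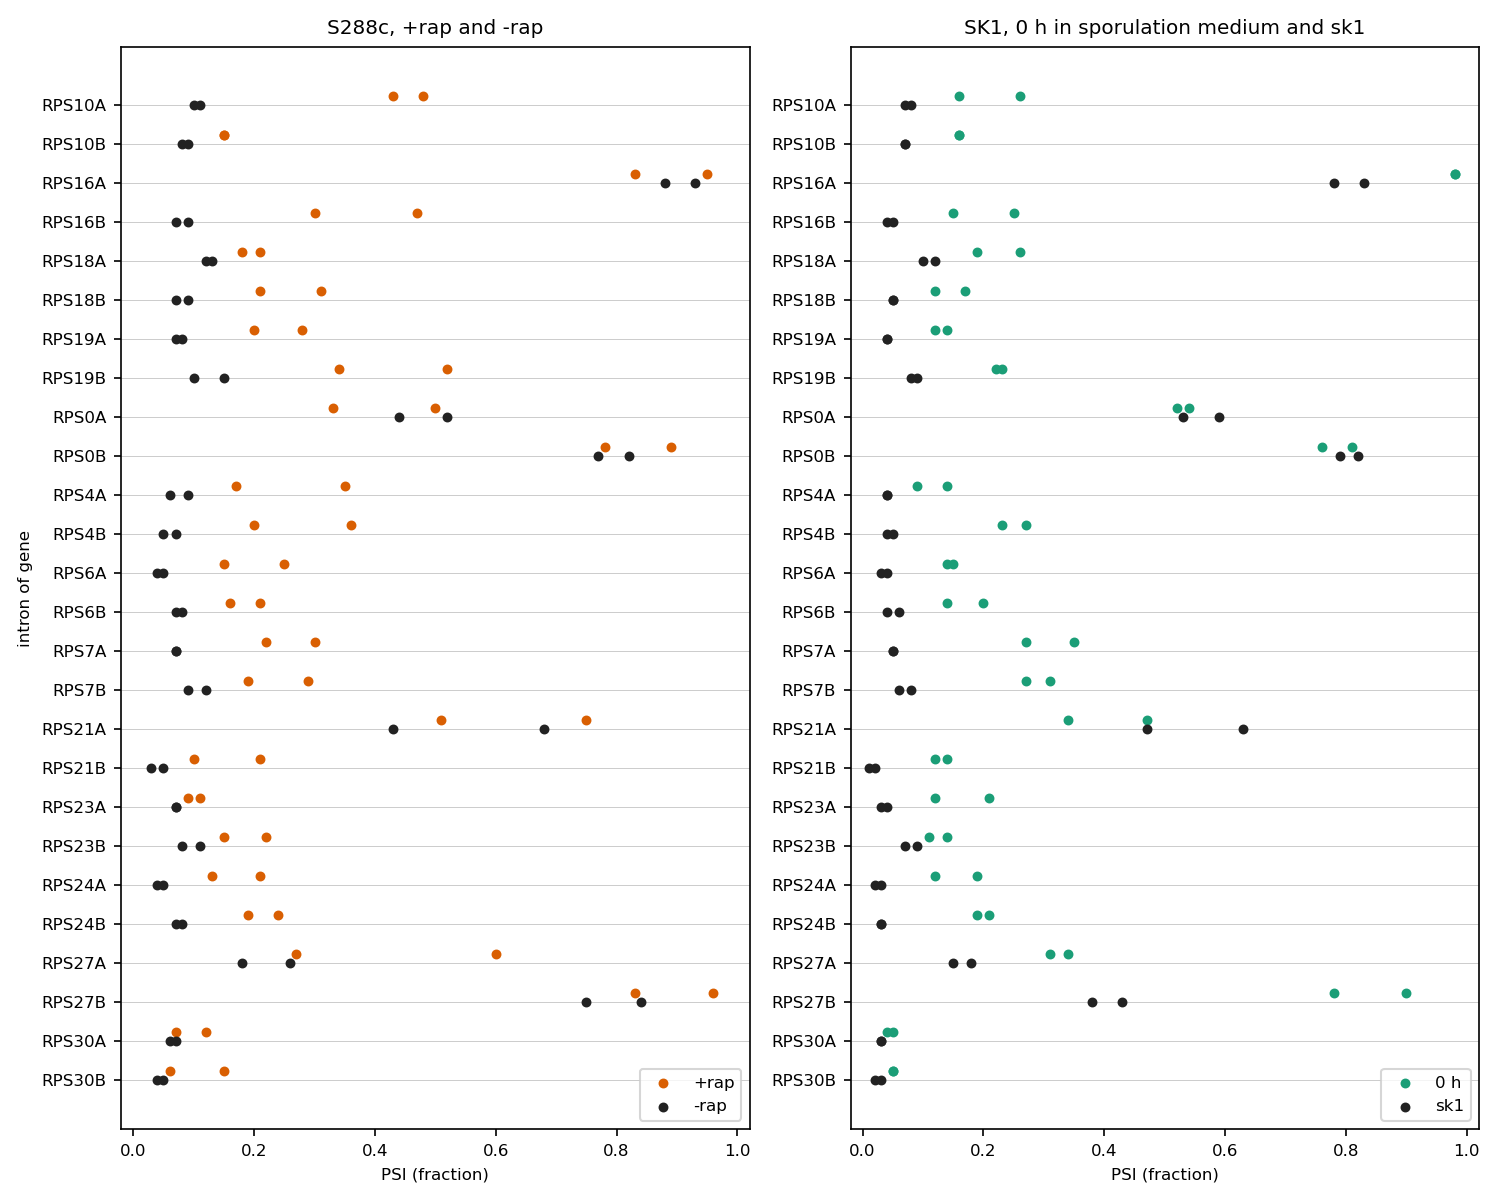
PSI (horizontal axes, fraction) of 26 of the introns in 2 Ribo-Zero comparisons, each point 1 library: +rap (orange) and -rap (black) on the left, SK1 at 0 h in sporulation medium (green) and sk1 (black) on the right. Most low introns lie further right in +rap and at 0 h than in -rap and sk1, while RPS0A and RPS0B overlap in both panels.

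The sk1 and -rap groups differ in strain. None of the 30 introns passed the test in sk1 against -rap (limma, 2 of 30 at an unadjusted p under 0.05), in a comparison where 0.680% of all events rose and 1.36% fell. With these 2 groups alone in the fit 2 of the 30 passed. The mean PSI was lower in sk1 for 28 of the 30, with a median difference of -0.0275 in PSI, against -0.01 over all events. In 21 of the 30 the 2 sk1 libraries lay below both -rap libraries, as did 33.7% of all events. RPL introns leaned the same way: in 36 of 54 both sk1 libraries lay below both -rap libraries. RPS27B had 0.43 and 0.38 in sk1 against 0.75 and 0.84 in -rap (limma adjusted p = 0.161). RPS30A had 0.03 and 0.03 in sk1 against 0.06 and 0.07 in -rap (limma adjusted p = 0.293). The dbr1, +rap and sk1 groups were all set against the same -rap libraries.

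At 0 h in sporulation medium 21 of the 30 introns rose relative to the sk1 group of the same strain and none fell (limma, adjusted p under 0.05). Among all events 28.3% rose and 8.53% fell. The median of the group means was 0.2 at 0 h and 0.05 in sk1. Of the RPL introns 43 of 54 rose, while of the 98 introns outside RPL and RPS genes 8 rose and 11 fell. Head proteins had 9 of 10 introns up and body or platform proteins 12 of 20, and this difference was not tested.

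RPS27B (chromosome VIII, 148117 to 148666, sacCer3, minus strand) had 0.78 and 0.90 at 0 h against 0.43 and 0.38 in sk1, the widest difference in PSI (2.96 ± 0.79 in log2 odds, limma adjusted p = 0.0185). RPS7A, of the body, had 0.27 and 0.35 at 0 h against 0.05 and 0.05 in sk1 (2.86 ± 0.51, limma adjusted p = 0.00323). Its paralog RPS7B had 0.27 and 0.31 at 0 h against 0.06 and 0.08 in sk1 (limma adjusted p = 0.0145). RPS4B had 0.23 and 0.27 at 0 h against 0.05 and 0.04 in sk1 (limma adjusted p = 0.0131).

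RPS24B, a body protein, had 0.19 and 0.21 at 0 h against 0.03 and 0.03 in sk1 (limma adjusted p = 0.0113). RPS16A also rose, at the high end of the scale, with 0.98 and 0.98 at 0 h against 0.78 and 0.83 in sk1 (3.04 ± 0.67, limma adjusted p = 0.00665). Of the other introns with high values, RPS27B rose as given above, while RPS0A, RPS0B and RPS21A did not pass. RPS0B had 0.81 and 0.76 at 0 h against 0.82 and 0.79 in sk1, and RPS21A had 0.47 and 0.34 against 0.63 and 0.47. The count was 19 and 6 without replicate 1 or 2 of 0 h and 7 without either sk1 library. The +rap and 0 h comparisons set no library in common, but both tests took each intron's spread from 1 fit of the Ribo-Zero libraries. They are therefore not independent. The introns that rose in both numbered 13, 92.9% of the 14 that rose in +rap and 61.9% of the 21 that rose at 0 h. The shares were alike over all 276 events tested in both comparisons, where 48 rose in both, 88.9% of the 54 that rose in +rap and 59.3% of the 81 that rose at 0 h. RPS23B was the intron of the 14 that did not pass at 0 h, with 0.11 and 0.14 there against 0.09 and 0.07 in sk1.

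Through the time course the median of the group means was 0.2 at 0 h, 0.11 at 3 h, 0.115 at 6 h and 0.295 at 12 h, over the 30, 30, 29 and 24 introns with both values. These are bulk cultures, in which a change in every cell and a change in a share of the cells cannot be told apart. At 3 h relative to 0 h 3 introns fell and none rose (limma, adjusted p under 0.05), in a comparison where 8.36% of all events fell and 1.39% rose. The share of the 30 that fell, 10%, was near the background. Among the 3, RPS7A had 0.05 and 0.18 at 3 h against 0.27 and 0.35 at 0 h (limma adjusted p = 0.0432). The mean PSI was lower at 3 h for 28 of the 30. In 14 of the 30 both 3 h libraries lay below both 0 h libraries, as they did in 31 of 51 RPL introns and 84 of all 287 events. Both lay above in 1 of the 30 and in 34 of all events.

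Replicate 2 of 3 h was higher than replicate 1 in 28 of the 30 introns, by a median of 0.085. The widest such gap was in RPS27B, with 0.48 and 0.79, against 0.78 and 0.90 at 0 h. Left out, replicate 2 of 3 h gave a count of 18 introns that fell. Leaving out replicate 1 of 3 h gave 1, and leaving out replicate 1 or 2 of 0 h gave 1 and 0.

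At 12 h relative to 0 h 4 of the 24 introns with values rose and 2 fell (limma, adjusted p under 0.05), in a comparison where 19.1% of all events rose and 7.87% fell. The shares of the 24, 16.7% and 8.33%, were thus near the background. RPS21A (chromosome XI, 551681 to 552002, sacCer3, plus strand) had 0.88 and 0.79 at 12 h against 0.47 and 0.34 at 0 h (2.87 ± 0.66 in log2 odds, limma adjusted p = 0.01). Its paralog RPS21B had 0.39 and 0.26 at 12 h against 0.12 and 0.14 at 0 h (1.60 ± 0.51, limma adjusted p = 0.0386). RPS7B (chromosome XIV, 443827 to 444171, sacCer3, minus strand) had 0.67 and 0.63 at 12 h against 0.27 and 0.31 at 0 h (2.14 ± 0.62, limma adjusted p = 0.0224). RPS0B also rose, with 0.96 and 0.93 at 12 h against 0.81 and 0.76 at 0 h (2.09 ± 0.40, limma adjusted p = 0.00327). The 2 that fell lay at the ends of the scale.

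RPS16A had 0.90 and 0.88 at 12 h against 0.98 and 0.98 at 0 h (-2.13 ± 0.67, limma adjusted p = 0.0354). RPS30A had 0.02 and 0.01 at 12 h against 0.04 and 0.05 at 0 h (-1.21 ± 0.39, limma adjusted p = 0.0364). With an offset of 0.05 in the odds, or on untransformed PSI, 6 introns rose and none fell. Without replicate 1 or 2 of 12 h the count was 1 and 3, and without replicate 1 or 2 of 0 h it was 2 and 1. The 3 h and 12 h groups were set against the same 0 h libraries, which also served in the comparison with sk1.

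Over all 6 times an F-test could use only the introns with both values at every time. All 5 of these changed (limma F-test, adjusted p under 0.05), against 56.0% of all events tested: RPS0B (limma adjusted p = 0.00406), RPS23B (0.00433), RPS7B (0.00558), RPS6A (0.0157) and RPS30A (0.0493). RPS6A, a phosphorylated protein of the body, had means of 0.145 at 0 h, 0.07 at 3 h, 0.075 at 6 h, 0.25 at 7.5 h, 0.175 at 8.5 h and 0.205 at 12 h. RPS23B had 0.125, 0.085, 0.07, 0.075, 0.07 and 0.175 at the same times. RPS6A was lowest at 3 h, and RPS23B at 6 and 8.5 h. Without replicate 1 of 12 h the count was 3, and with only the time course libraries in the fit it was 2. RPS30A lost the call under 15 of its 20 alternatives, with limma adjusted p-values up to 0.339. Over 0, 3, 6 and 12 h, times chosen after the data were seen, 15 of 24 introns changed, against 43.8% of all events.

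Paralogs were compared within each library, as the log2 odds of copy A minus those of copy B. Over all libraries with both values, RPS16A was above RPS16B in 24 of 24, with a mean difference of 0.65 in PSI (SD 0.23 over libraries of all groups). RPS21A was above RPS21B in 21 of 23, the other 2 being equal, with a mean difference of 0.44. RPS0A was below RPS0B in 24 of 24, with a mean difference of -0.33, and RPS27A was below RPS27B in 17 of 20, with -0.32. In 10 of the other pairs the mean difference lay between -0.073 for RPS7 and 0.0435 for RPS10. The copy with the longer intron had the higher mean PSI in 8 of the 15 pairs. These levels carry the uncertainty over reads shared by both copies.

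A change in the difference between copies was tested over all 40 A and B pairs of the table, of which 15 are the pairs described here (limma, adjusted p under 0.05). In +rap against -rap 1 of the 15 changed, RPS10, beside 5.00% of all pairs. RPS10A averaged 0.455 ± 0.035 in +rap and 0.105 ± 0.007 in -rap, while RPS10B averaged 0.15 ± 0 in +rap and 0.085 ± 0.007 in -rap (SD, n = 2 each). The difference of A minus B was 1.86 ± 0.43 higher in log2 odds in +rap (SE, limma adjusted p = 0.0132). It did not pass without +rap replicate 2 (limma adjusted p = 0.0880), or without -rap replicate 1 (0.0976) or 2 (0.0894).

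In dbr1_null against WT the pairs RPS23 and RPS10 changed, beside 10.0% of all pairs. RPS23A averaged 0.075 ± 0.007 in dbr1_null and 0.03 ± 0 in WT, while RPS23B averaged 0.11 ± 0 in dbr1_null and 0.125 ± 0.007 in WT (SD, n = 2 each; limma adjusted p = 0.00628). RPS10A averaged 0.065 ± 0.007 in dbr1_null and 0.07 ± 0.014 in WT, while RPS10B averaged 0.10 ± 0 in dbr1_null and 0.045 ± 0.007 in WT (limma adjusted p = 0.00808). Both tests rest on differences of a few steps of the table. The count was 5 without dbr1_null replicate 1, 0 without WT replicate 1 and 1 without WT replicate 2. In upf1_null none of the 15 passed, beside 0% of all pairs (limma, 2 of the 15 at an unadjusted p under 0.05).

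In dbr1 against -rap 7 of the 15 pairs changed, beside 47.5% of all pairs, which is close to the background. Among those with the widest change were RPS16, RPS21, RPS27, RPS23 and RPS19. RPS16A averaged 1 in dbr1 and 0.905 in -rap, while RPS16B averaged 0.975 in dbr1 and 0.08 in -rap (limma adjusted p = 0.000136). RPS21A averaged 1 in dbr1 and 0.555 in -rap, while RPS21B averaged 1 in dbr1 and 0.04 in -rap. RPS27A and RPS27B both averaged 1 in dbr1, and 0.22 and 0.795 in -rap. In RPS21 and RPS27 both copies stood at the ceiling of the scale in dbr1, so the change in their difference is their difference in -rap alone. RPS23 went another way: RPS23A averaged 0.98 in dbr1 and 0.07 in -rap, while RPS23B averaged 0.875 in dbr1 and 0.095 in -rap (limma adjusted p = 0.000267). For RPS19, with RPS19A at 1 and RPS19B at 0.985 in dbr1, the limma adjusted p was 0.00196 on the log2 odds and 0.284 on untransformed PSI. On untransformed PSI 4 of the 15 pairs changed.

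In sk1 against -rap RPS27 changed, beside 2.50% of all pairs: RPS27A averaged 0.165 in sk1 and 0.22 in -rap, and RPS27B 0.405 in sk1 and 0.795 in -rap (limma adjusted p = 0.0178). It did not pass when any of the 4 libraries was left out. At 0 h against sk1 RPS21 and RPS27 changed, beside 17.5% of all pairs. RPS21A averaged 0.405 at 0 h and 0.55 in sk1, while RPS21B averaged 0.13 at 0 h and 0.015 in sk1 (-3.53 ± 0.64 in log2 odds, limma adjusted p = 0.00277). RPS27A averaged 0.325 at 0 h and 0.165 in sk1, while RPS27B averaged 0.84 at 0 h and 0.405 in sk1 (-1.72 ± 0.43, limma adjusted p = 0.0150). For RPS21 the copies thus differed less at 0 h than in sk1. RPS27 did not pass without replicate 2 of 0 h (limma adjusted p = 0.212) or without either sk1 library (0.0838 and 0.0685).

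Between 3 h and 0 h none of the 15 pairs passed, beside 0% of all pairs (limma, 4 of the 15 at an unadjusted p under 0.05), and 2 passed without replicate 1 or without replicate 2 of 3 h. At 12 h against 0 h 3 of the 9 pairs with values changed, beside 44.8% of all pairs. RPS7A averaged 0.23 ± 0.057 at 12 h and 0.31 ± 0.057 at 0 h, while RPS7B averaged 0.65 ± 0.028 at 12 h and 0.29 ± 0.028 at 0 h (SD, n = 2 each). The 2 copies had near-equal PSI at 0 h and differed at 12 h, a change of -2.72 ± 0.44 in log2 odds (SE, limma adjusted p = 0.000276). RPS16A averaged 0.89 at 12 h and 0.98 at 0 h, while RPS16B averaged 0.34 at 12 h and 0.20 at 0 h (limma adjusted p = 0.00384). RPS0 passed on the log2 odds (limma adjusted p = 0.0470), but RPS0A had 0.34 and 0.74 in the 2 libraries at 12 h, and without replicate 1 of 12 h its adjusted p was 0.615. Without replicate 1 of 0 h 1 of the 9 pairs passed.

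**Figure D4:**
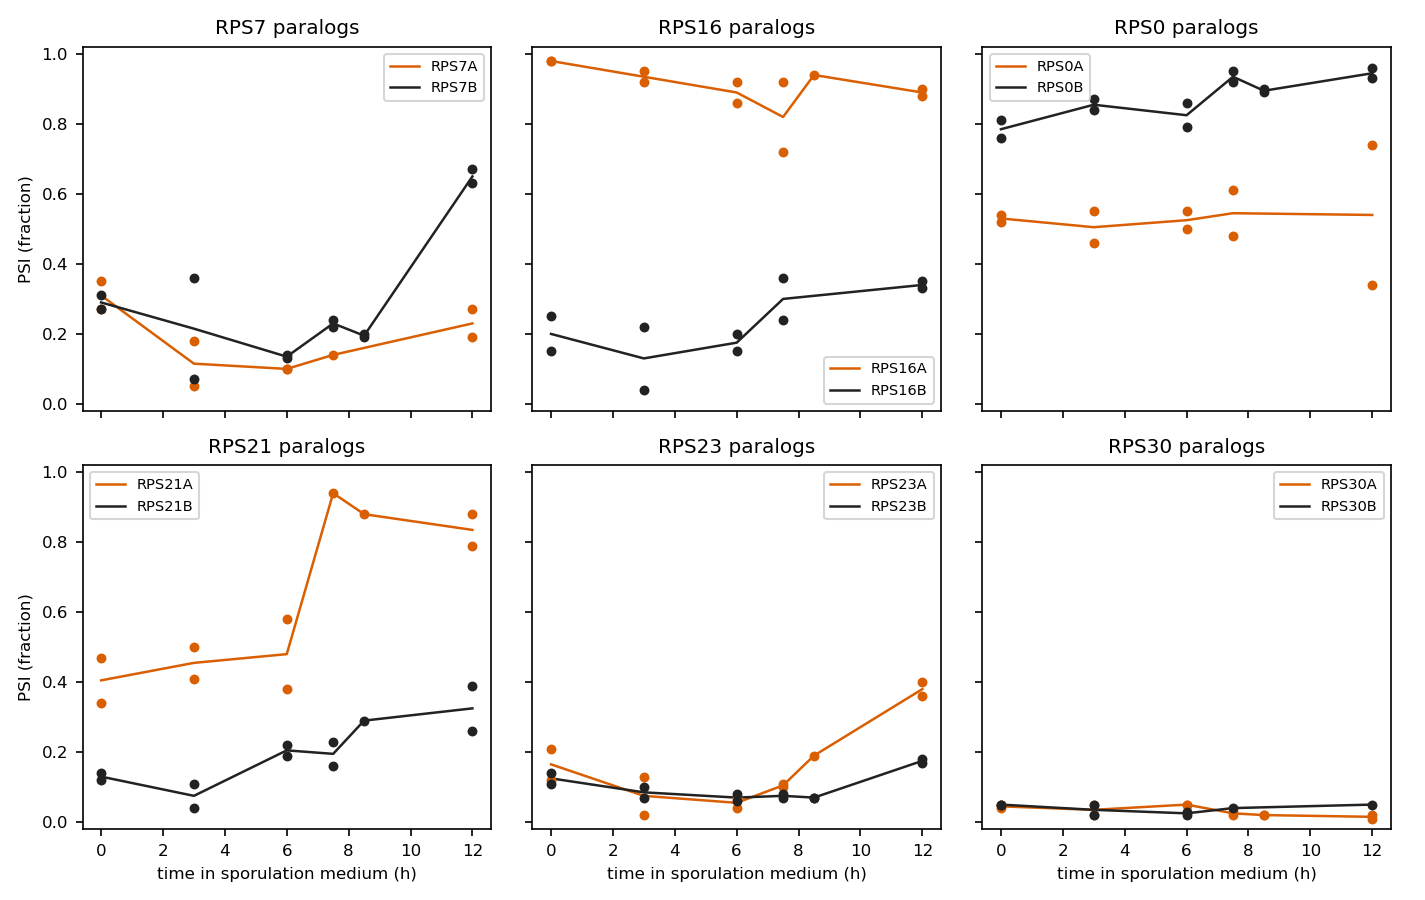
PSI (vertical axes, fraction) of both copies of 6 paralog pairs against hours in sporulation medium, with each point 1 library and lines through the group means (copy A orange, copy B black). RPS7A and RPS7B lie together at 0 h and apart at 12 h (0.23 and 0.65), and RPS30A and RPS30B stay below 0.1 throughout.

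Branch points were mapped by Branch-seq, in which lariats are isolated on a gel, opened with the debranching enzyme and sequenced from the branch point. The 3 gel fractions made 1 experiment with no replicate, and its values are in CPM, counts scaled to the library's total. All values were whole multiples of 0.0417 CPM within 0.01 reads, so that 1 read was worth that much. An annotated branch site was listed for 11 of the 30 genes, 36.7%, against 57.7% of 52 RPL genes with 1 intron. The share was 33.3% for the 33 genes outside RPL and RPS with 1 intron of 200 nt or longer, and 91.2% for the 148 with a shorter one. All 30 introns described here were over 200 nt.

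RPS19A stood first among them with 51.4 CPM (1233 reads, 95% Poisson interval 48.6 to 54.4 CPM), rank 114 among all annotated sites. RPS24B had 1.29 CPM (31 reads, 0.879 to 1.84 CPM). Of the 11 sites 8 lay under 1 CPM, from RPS0B at 0.584 CPM (14 reads) down to RPS10B at 0.0834 CPM (2 reads). The intervals cover counting error only. The median over the 11 sites was 0.292 CPM, against 112.6 CPM over all annotated sites, and the 11 together held 0.152% of the reads at annotated sites. Long introns outside RPL and RPS genes had the same median, 0.292 CPM over 11 sites, and the shorter ones had 180 CPM over 129 sites. The 6 left-out RPS introns, all 200 nt or longer, had a site in 5 genes (83.3%), with a median of 20.7 CPM and up to 81.4 CPM. No replicate bears on these values.

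Branch-seq read counts also differed between paralogs. RPS19A had 1233 reads and RPS19B 4 (0.167 CPM, 0.0455 to 0.427 CPM). In another pair RPS10A was listed with 13 reads (0.289 to 0.928 CPM) and RPS10B with 2 (0.0101 to 0.301 CPM), whose intervals overlap. For the other 19 genes no annotated site was listed. Lariat-seq, a single library that counts reads across the branch, listed 58 sites with 3541 reads and a median of 11.5 reads a site, of which 2 sites lay in these introns. RPS4B had 15 reads at a branch point 227 nt after the 5′ splice site and 41 nt before the intron's end. RPS4A had 5 reads, with 173 nt and 82 nt on either side.

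**Figure D5:**
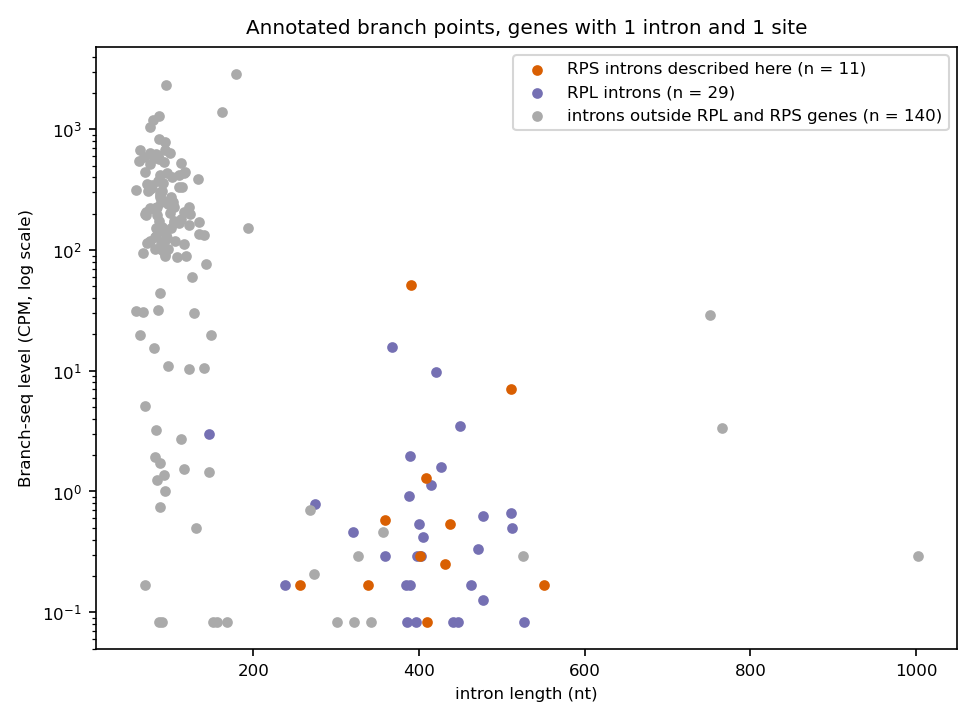
Branch-seq level (vertical axis, CPM on a log scale) against intron length (horizontal axis, nt) for genes with 1 annotated intron and 1 annotated branch site, each point 1 site. The 11 RPS sites (orange) lie among the long introns, most of them under 1 CPM, with RPS19A the highest of them at 51.4 CPM.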

How the data were processed

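Splicing values were the PSI fractions that the authors deposited for 405 events, 1 column per library. The submitters' processing notes name TopHat2 2.0.0 and Cufflinks 2.2.1 with sacCer3 and R64 for RNA-seq, but not the step that made the PSI. Branch-seq CPM were deposited by the authors as 1 column for 3 pooled gel fractions, with sacCer2 in those notes, and were matched by gene name only. PSI was turned into log2((PSI + 0.01)/(1 - PSI + 0.01)) and tested with limma 3.58.1 in R 4.3.3, two-sided, all libraries of 1 preparation in 1 fit, over every event with both values in both groups, with Benjamini-Hochberg adjustment and a threshold of 0.05. Missing values were left out, never imputed. The limma fits were tested on simulated data. Genes were assigned by strand and overlap with the R64 RefSeq genes. Up to 8 members per comparison past the threshold are named by the size of the PSI difference, with paralogs; where none passes, the 3 with the smallest p; and up to 6 pairs. The members and lists were chosen with earlier results of these data known. All 30 members enter the fits and counts, and 4 of them are not reported here by name or shown in the plots by intron. Same-numbered replicates share only a number. Alternatives were another offset, untransformed PSI, robust moderation, fewer groups or events in the fit, a replicate block, and each library left out. Depth per PSI is unknown, which limits the precision of each value to the spread of 2 replicates.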

Additional observations from a re-analysis of the deposited data

Results flagged for a closer look

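Branch-seq lists 2 unannotated branch sites in genes described above for which no annotated site is listed, signals outside the comparisons of PSI. RPS6B had 6.43 CPM (154 reads, 95% Poisson interval 5.45 to 7.52 CPM) and RPS7A had 4.97 CPM (119 reads, 4.11 to 5.94 CPM). Both are above the limit of 0.125 CPM that a count of 0 allows (3 reads), and above 9 of the 11 annotated sites. The intervals cover counting error only, and there is no replicate.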

How the results depend on the processing

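No named intron or pair changed direction under any alternative. Of the alternative values for named introns, pairs and time-course tests, 528 stayed on the same side of the threshold and 180 lost the call. Counts of introns that passed moved as follows. With only the compared groups in the fit they were 2 (upf1_null), 1 (+rap), 2 (sk1), 0 (3 h) and 2 (12 h), and 2 of 5 in the F-test with only the time course libraries. On untransformed PSI they were 0 (dbr1_null) and 2 (upf1_null), and with robust moderation 3 (upf1_null). Over events with a value in every library only 5 of the 30 were tested, and 5 (dbr1), 2 (+rap), 2 (0 h), 0 (3 h) and 3 (12 h) passed. Over 4 times the F-test called 15. For pairs, only the compared groups gave 1 (dbr1_null), 3 (upf1_null), 3 (+rap) and 1 (0 h), untransformed PSI gave 4 (dbr1) and 5 (+rap), and an offset of 0.05 gave 4 (+rap). Pairs with a value in every Ribo-Zero library could not be fitted, as none was left. Beyond fewer tests or samples, the cause was not tested.

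Leaving out 1 library gave ranges of 0 to 5 introns (dbr1_null), 0 to 3 (upf1_null), 28 to 29 (dbr1), 0 to 16 (+rap), 0 to 0 (sk1), 6 to 19 (0 h), 0 to 18 (3 h), 1 to 3 (12 h) and 3 to 5 (F-test). For pairs the ranges were 0 to 5, 0 to 0, 7 to 8, 0 to 2, 0 to 0, 1 to 2, 0 to 2 and 1 to 4 in the same order of comparisons. A group left with 1 library is assumed to vary like the others.

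With the replicate block the counts were 0 (dbr1_null) and 0 (upf1_null), and it moved no other count by more than 1.5 times. Deviations of same-numbered libraries correlated between -0.383 and 0.362. With crossed numbers in the block, chosen after seeing the data because the correlation was under -0.1, the counts were 30 (dbr1) and 0 (sk1), and 7 and 1 for pairs.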

Other observations

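The table holds 9 further events in these genes, 8 alternative 3′ splice sites (A3SS) and 1 intron outside the annotation, which were not counted among the 30. Most sat near a PSI of 1 in every library. The A3SS event of RPS16A had 1 and 1 in dbr1 against 0.67 and 0.70 in -rap (limma adjusted p = 8.76e-06). That of RPS7A, an intron of 58 nt, had 0.93 and 0.90 in dbr1 against 1 and 1 in -rap (limma adjusted p = 1.44e-05). The unannotated intron of RPS16B had 0.86 and 0.87 at 12 h against 1 and 0.99 at 0 h (limma adjusted p = 0.0021), and its lowest value was 0.73 in replicate 2 of 8.5 h. These events were chosen after their values were seen.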
